A study of Mus musculus with 10 samples.

Results

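The goblet cell mucus and secretory genes described here are 10 gene symbols, Muc2, Zg16, Tff3, Fcgbp, Clca1, Agr2, Spink4, Retnlb, Sytl2 and Creb3l1, out of 24016 symbols in the deposited transcription table. They were chosen by name as genes of the mucus-making cell and all 10 were found. Goblet cells store mucus in granules and release it onto the epithelium. In the intestine that mucus is a net of the gel-forming mucin MUC2, to which other secreted proteins add, and its making needs a large folding and export capacity in the endoplasmic reticulum (ER). In the crypt, the goblet cell arises from the secretory branch, which depends on the transcription factor ATOH1, and the absorptive enterocyte arises from the other branch.

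The cells were epithelial organoids of mouse duodenum grown in Matrigel. In the stem cell medium, WENRC, they received CHIR-99021 and Wnt3A, which activate Wnt signalling, besides EGF, R-spondin and Noggin. The enterocyte medium, ENRI, lacked Wnt3A and CHIR-99021 and held IWP-2, which blocks the secretion of Wnt ligands; EGF, Noggin and R-spondin belong to both names. Strain, age, sex and culture time of the mice and organoids are not given in the sources used here. Transcription in progress was read by GRO-seq, global run-on sequencing of the RNA that polymerases were extending in isolated nuclei, in 2 libraries per medium. They are numbered by the batch, 1 or 2, of the authors' file header. The titles number the mice 1 and 2 in both media, but the columns could not be tied to a mouse, so p-values measure the spread between these libraries. The histone mark H3K27me3, which Polycomb repressive complex 2 writes, was mapped in 1 library per medium.

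Over all transcripts, the reads recovered were 25839484 in WENRC and 29128101 in ENRI of batch 1, and 9245915 and 15787828 in batch 2. Levels are RPKM, reads scaled to transcript length and to the library's total. How reads were spread along a gene was not examined, so comparing levels of genes of unlike length is only a description. The main test was limma on log2(RPKM + 0.5) over the 11602 genes that reached 0.5 RPKM in 2 or more libraries, at a Benjamini-Hochberg adjusted p of 0.05. A difference on this scale understates the change of a gene with a low level, so ratios of reads, as shares of each medium's reads, are given beside it with exact 95% intervals that cover counting error only. The libraries are bulk samples, in which fewer cells of a type and less RNA per cell cannot be told apart.

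The label Clca1 was the 1 member that did not hold the goblet cell gene. The accession of that row belongs in RefSeq's current annotation to Clca3a1, whose synonyms include Clca1. The goblet cell gene now called Clca1, also known as gob-5, is the row that the table lists as Clca3. The other 9 members carried the accession of the gene they name. Both rows are given throughout, and the Clca3 row is called goblet cell Clca1.

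Members were split between media. The mucus proteins Muc2, Zg16, Fcgbp, Tff3 and goblet cell Clca1 were each higher in both ENRI libraries than in both WENRC libraries, by 2.62-fold to 132-fold in reads. Agr2 and Sytl2 were higher by less. Spink4, Creb3l1 and the listed Clca1 were lower in both ENRI libraries, though the direction of Spink4 turned with TMM scaling, and Retnlb had almost no reads. By limma, 2 of the 7 members that passed the filter, Muc2 and Zg16, rose in ENRI and 0 fell, while 5 of the 7 had an unadjusted p under 0.05 (4 higher, 1 lower). Over all genes tested, 0.0603% were called higher and 0.0862% lower, and 12% were higher and 26.9% lower at an unadjusted p under 0.05. Muc2 and Zg16 passed the filter through the ENRI libraries alone, and the listed Clca1 through the WENRC libraries alone, so for these a difference was built into passing. The range of 10 members did not overlap between media in 6 cases with ENRI above and in 4 with ENRI below. Over all symbols, these shares were 15.1% and 33.4%. With goblet cell Clca1 in place of the listed Clca1, 7 lay above and 3 below.

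**Figure D1:**
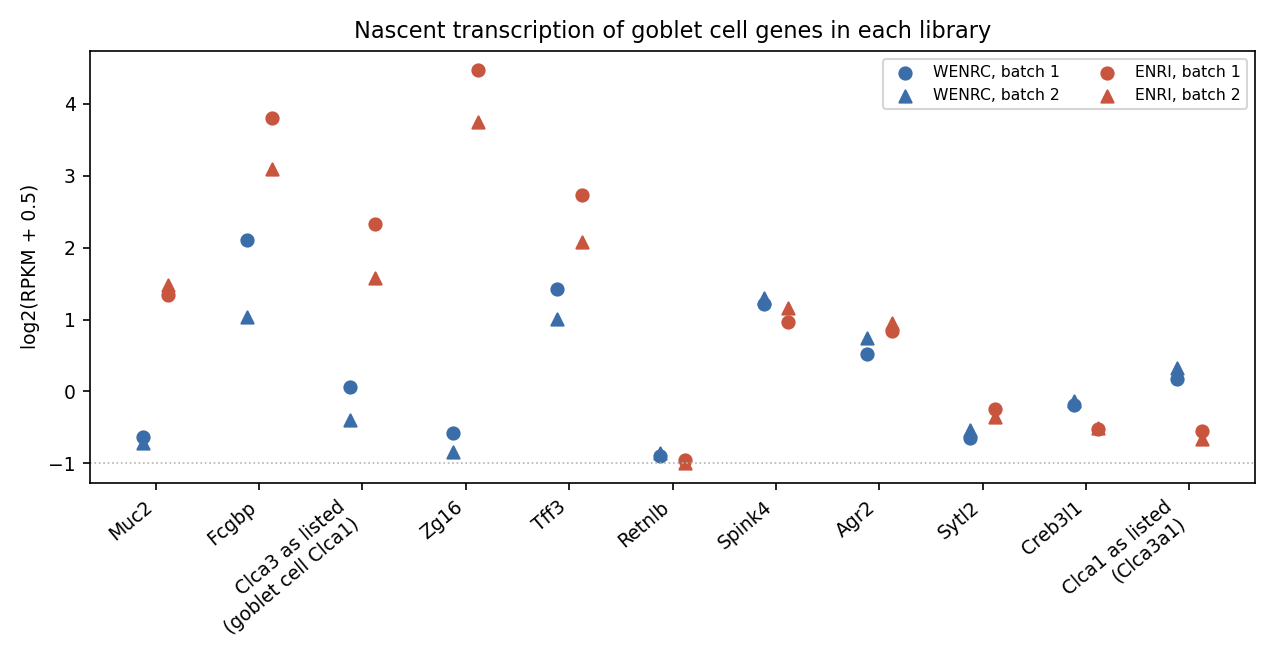
Level of each goblet cell gene in each of the 4 GRO-seq libraries, as log2(RPKM + 0.5). Circles are batch 1 and triangles batch 2; blue is WENRC, red is ENRI, and the dotted line is a level of 0. The ENRI points of Muc2, Fcgbp, goblet cell Clca1, Zg16 and Tff3 lie above both WENRC points, and those of Creb3l1 and the listed Clca1 lie below.

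Muc2 encodes the gel-forming mucin that makes the intestinal mucus net. Its gene lies at chr7:148876239-148940599 on the plus strand of mm9. It had 0.147 and 0.106 RPKM in WENRC and 2.03 and 2.28 RPKM in ENRI, from 244, 63, 3810 and 2312 reads. Both ENRI libraries lay well above both WENRC libraries, and the libraries of a medium were close to each other. The limma difference was 2.08 ± 0.12 on the log2 scale (SE, n = 2 libraries per medium, adjusted p = 0.0374). The share of reads was 15.6-fold higher in ENRI (13.9 to 17.5), with 13.9-fold in batch 1 and 21.5-fold in batch 2. Among all symbols, Muc2 stood above 40.7% in WENRC and above 85.2% in ENRI.

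Zg16 encodes a lectin-like protein of mucus granules that binds bacterial cell walls. It is a short gene, 1821 bp at chr7:134193670-134195491 on the minus strand, so its level rests on few reads in WENRC. The reads were 8 and 1 in WENRC and 1147 and 372 in ENRI, which is 0.17 and 0.0593 RPKM against 21.6 and 12.9 RPKM. No member had a larger difference between media than Zg16, and its ENRI level was the highest of the 10. The limma difference was 4.82 ± 0.30 on the log2 scale (SE, n = 2 per medium, adjusted p = 0.0394). The ratio of reads was 132 (69.3 to 289), and the upper end of the interval in batch 2, where WENRC had 1 read, reached 8628. Zg16 stood above 40% of symbols in WENRC and above 98.7% in ENRI.

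The calls of Muc2 and Zg16 were lost without the WENRC library of batch 1 (adjusted p = 0.314 by limma for each) or of batch 2 (0.414 for each), and with TMM scaling (0.0648 and 0.0513). With the replicate block, which pairs libraries by batch, limma called 0 of the 7 members (Muc2 and Zg16 both at 0.0739), with 5 at an unadjusted p under 0.05 (33.1% of all tested genes), whereas edgeR's quasi-likelihood test called 5, of which 4 were higher (Muc2, Zg16, Tff3 and Fcgbp) and 1 lower (the listed Clca1), beside 5.03% of all tested genes higher and 2.19% lower.

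Fcgbp encodes a large mucus protein with repeated von Willebrand D domains, which it shares with MUC2. It lies at chr7:28856255-28905883 on the plus strand. Its levels were 3.8 and 1.54 RPKM in WENRC and 13.5 and 8.03 RPKM in ENRI. The media did not overlap, but within each medium batch 1 stood well above batch 2. The difference was 1.88 ± 0.47 on the log2 scale (SE, n = 2 per medium, limma adjusted p = 0.0723), and the ratio of reads was 3.55 in batch 1 and 5.22 in batch 2. Fcgbp was thus already above 88.1% of symbols in WENRC, where Muc2 was at a low level, and above 97.9% in ENRI.

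Tff3 encodes trefoil factor 3, a small peptide that goblet cells release with mucin and that is known for its part in epithelial repair. The gene lies at chr17:31262251-31266556 on the minus strand. It had 2.19 and 1.51 RPKM in WENRC and 6.12 and 3.71 RPKM in ENRI. ENRI lay above WENRC in each batch, by 2.79-fold in batch 1 and 2.46-fold in batch 2 in reads. The difference of 1.18 ± 0.30 on the log2 scale missed the limma threshold (SE, n = 2 per medium, adjusted p = 0.0747). The other trefoil genes were at or near 0. Tff1 had 0 in both WENRC libraries and 0.178 and 0 RPKM in ENRI, and Tff2, which lies 11451 bp from Tff3, had 0.0107 and 0.197 RPKM in ENRI and 0 in WENRC.

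Goblet cell Clca1, the row listed as Clca3, encodes a secreted metalloprotease of mucus that acts on MUC2. It lies at chr3:144667501-144695740 on the minus strand. Its levels were 0.545 and 0.26 RPKM in WENRC and 4.54 and 2.49 RPKM in ENRI. Both ENRI libraries were above both WENRC libraries, and batch 1 was above batch 2 in each medium, as for Fcgbp, Tff3 and, with 8 reads and 1 read in WENRC, Zg16. The difference was 2.12 ± 0.32 on the log2 scale (SE, n = 2 per medium, limma adjusted p = 0.056). Its share of reads was higher in ENRI by 8.33-fold in batch 1 and 9.56-fold in batch 2, and by 8.12-fold (7.39 to 8.95) with the batches pooled. It missed the limma threshold, and passed in edgeR's test with the replicate block (adjusted p = 0.0139) and without it (0.045).

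The listed Clca1, by accession Clca3a1, is a relative encoding a calcium-activated chloride channel regulator, at chr3:144393280-144423703. It had 0.63 and 0.757 RPKM in WENRC and 0.186 and 0.133 RPKM in ENRI, the opposite order to goblet cell Clca1. The difference was -0.85 ± 0.15 on the log2 scale (SE, n = 2 per medium, limma adjusted p = 0.056). It was called lower by edgeR's test with the replicate block (adjusted p = 0.0335) and without it (0.045).

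The 7 Clca genes in the table lie in a row on the minus strand of chromosome 3, and they fell into blocks of unlike direction. The 3 with the lowest coordinates, listed as Clca1, Clca2 and Clca4, were lower in both ENRI libraries. The next 4, listed as AI747448, Clca6, Clca3 and Clca5, were higher in both. Clca4 (RefSeq's Clca3b) had the highest WENRC level of the family, 2.97 and 3.79 RPKM, and 0.458 and 0.845 RPKM in ENRI. AI747448 (Clca4b) had the highest ENRI level in batch 2, 0.915 and 0.425 RPKM in WENRC against 3.94 and 5.78 RPKM in ENRI. By limma, 0 of the 5 tested were called and 5 had an unadjusted p under 0.05 (2 higher, 3 lower), beside 12% higher and 26.9% lower over all tested genes. By edgeR and DESeq2, with and without the replicate block, 2 were called higher and 3 lower. Over all tested genes, edgeR called 5.12% higher and 2.47% lower without the block, and 5.03% and 2.19% with it. DESeq2 called 14.7% and 8.88% without it, and 9.69% and 4.65% with it. The listed Clca1 and Clca2 passed the filter through the WENRC libraries alone, so for these a difference was built into passing. The genes are related in sequence, and reads that match more than 1 copy could be shared between rows by the counting, which was not tested.

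**Figure D2:**
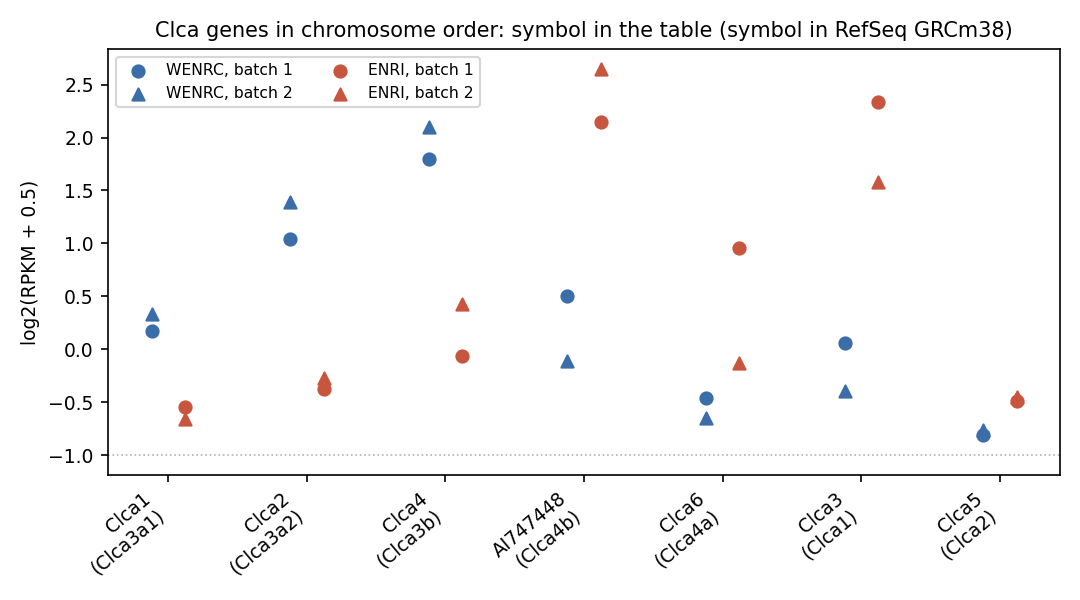
Level of the 7 Clca genes in each library as log2(RPKM + 0.5), in chromosome order, with the symbol in the table above RefSeq's symbol. Circles are batch 1, triangles batch 2, blue WENRC and red ENRI; the 3 genes on the left are higher in WENRC and the 4 on the right are higher in ENRI.

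Agr2 encodes a protein disulfide isomerase of the ER that MUC2 needs to fold. It had 0.937 and 1.17 RPKM in WENRC and 1.29 and 1.44 RPKM in ENRI, at chr12:36719512-36730668. ENRI was above WENRC without overlap but by little. The difference was 0.27 ± 0.14 on the log2 scale (SE, n = 2 per medium, limma adjusted p = 0.223). The ratio of reads was 1.34 (1.19 to 1.53), and its interval in batch 2, 0.982 to 1.53, included equal shares.

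Spink4 encodes a small secreted serine protease inhibitor of the Kazal type that is abundant in goblet cells. It had 1.83 and 1.95 RPKM in WENRC and 1.45 and 1.73 RPKM in ENRI, at chr4:40867089-40878428. The ENRI libraries were just below the WENRC libraries. The difference was -0.20 ± 0.14 on the log2 scale (SE, n = 2 per medium, limma adjusted p = 0.34), close to the median of all tested genes, -0.21. Its direction turned with TMM scaling, which moved the median of all tested genes by 0.20 and gave Spink4 0.02, and in edgeR's and DESeq2's tests on the same genes (0.02 to 0.03), but not with edgeR's own filter (-0.00 without and -0.01 with the replicate block). Its relative Spink3, which encodes a trypsin inhibitor, had 0.0971 and 0.0354 RPKM in WENRC and 1.61 and 4.39 RPKM in ENRI.

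Retnlb encodes resistin-like molecule beta, an antimicrobial protein that goblet cells release, at chr16:48816969-48819005. It had 2 reads and 1 read in WENRC and 1 and 0 in ENRI. The ratio, 0.26 with an interval from 0.00496 to 3.24, shows that no difference was detectable at this depth. Its neighbour Retnla had 0 reads in all 4 libraries, which allows up to 3 reads in each.

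Sytl2 encodes a synaptotagmin-like effector of the small GTPase RAB27 that tethers granules to the cell membrane, at chr7:97450865-97559229. It had 0.14 and 0.187 RPKM in WENRC and 0.348 and 0.285 RPKM in ENRI, under the filter of the test. The gene is long, 108364 bp, so these levels rest on 393 and 187 reads in WENRC and 1099 and 488 in ENRI. The ratio of reads was 2.48 (2.21 to 2.79) in batch 1 and 1.53 (1.29 to 1.82) in batch 2. The media did not overlap in any of the 3 intervals that its 9 listed transcripts span.

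Creb3l1 encodes a membrane-bound transcription factor, cleaved on its way through the Golgi, that acts on genes of the secretory pathway, and lies at chr2:91822485-91864327. It had 0.376 and 0.416 RPKM in WENRC and 0.196 and 0.2 RPKM in ENRI, also under the filter. Both media had tight pairs, with ENRI lower. The ratio of reads was 0.511 (0.447 to 0.584), with 0.522 in batch 1 and 0.48 in batch 2.

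**Figure D3:**
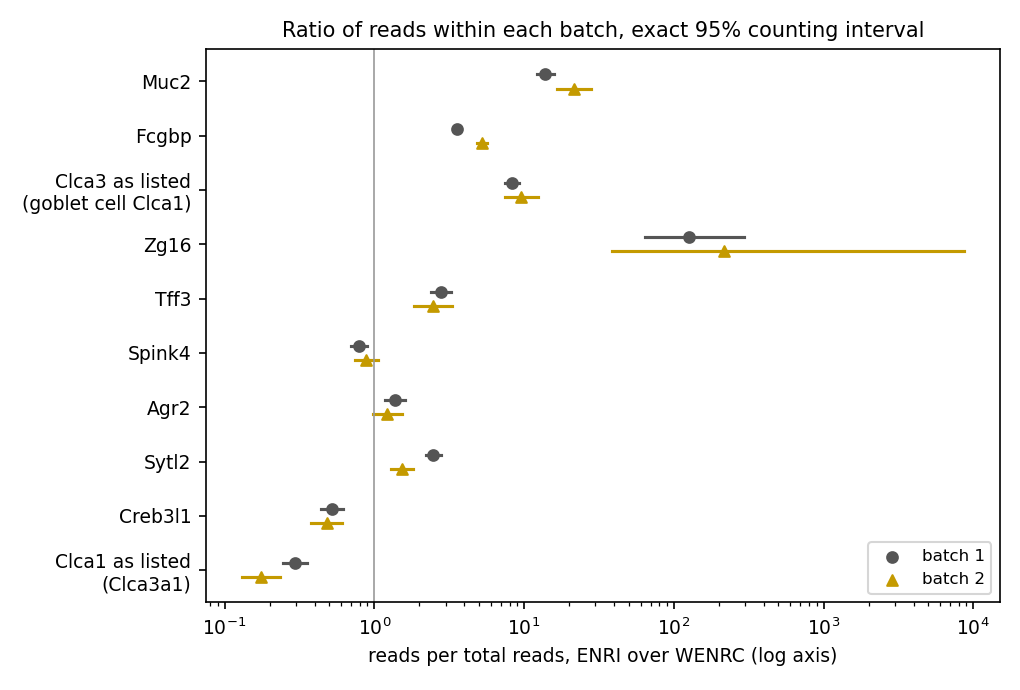
Ratio of the shares of reads, ENRI over WENRC, in batch 1 (grey circles) and batch 2 (yellow triangles) on a log axis, with exact 95% intervals for counting error; Retnlb is left out for want of reads. The 2 batches lie on the same side of equal shares for each of the 10 genes drawn, and the interval includes equal shares only for Agr2 and Spink4 in batch 2.

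The order of the members changed between media. In WENRC the highest mean levels were those of Fcgbp, 2.67 ± 1.6 RPKM, Spink4, 1.89 ± 0.0823 RPKM, and Tff3, 1.85 ± 0.485 RPKM (SD, n = 2), which did not differ beyond their spread. In ENRI they were Zg16, 17.3 ± 6.14 RPKM, Fcgbp, 10.8 ± 3.88 RPKM, Tff3, 4.91 ± 1.7 RPKM, and goblet cell Clca1, 3.52 ± 1.45 RPKM. The ranges of Zg16 and Fcgbp overlapped in ENRI, as did those of Tff3 and goblet cell Clca1. Muc2 followed with 2.15 ± 0.172 RPKM, below the lowest library of goblet cell Clca1 and above Spink4, 1.59 ± 0.195 RPKM, and Agr2, 1.36 ± 0.102 RPKM. The summed level of the 10 members as listed was 10.3 and 7.74 RPKM in WENRC and 46.8 and 30.7 RPKM in ENRI. The median difference over all 10 members was 0.28 on the log2 scale, and 0.74 with goblet cell Clca1 in place of the listed row, beside -0.02 over all symbols.

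The authors' deposited table, which used edgeR with batch as a term, called more members. At an FDR of 0.05 it had Muc2 (log2 fold change 4.34), Zg16 (7.34), Fcgbp (2.35) and Tff3 (1.63) higher in ENRI, and the listed Clca1 (-1.88) lower, so 4 members were higher and 1 was lower. With goblet cell Clca1 (3.39, FDR 3.06e-13) in place of that row, 5 were higher and 0 lower. Over all symbols of the authors' deposited table, 5.65% were higher and 3.06% lower. Sytl2 was just outside its threshold (1.21, FDR 0.0553) and, in the authors' deposited table, its form that ends inside the gene was just inside (1.28, FDR 0.0445). The Sytl2 forms that begin inside the gene were not called in the authors' deposited table (1.09, FDR 0.178). Agr2 (0.62, FDR 0.417), Creb3l1 (-0.75, FDR 0.314) and Spink4 (-0.01, FDR 1) were not called in the authors' deposited table.

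RefSeq promoter sequences of build GRCm38.p6, running from 250 bases before to 50 bases after the start, were matched for 4 of the 10 members. The promoters of Muc2, Fcgbp and Agr2 are shown because they belong to a member that rose, to one with a similar direction that missed the limma threshold, and to one that differed little. Capitals mark matches to the motifs searched. They lie at chr7:141690090-141690389, chr7:28070986-28071285 and chr12:35992675-35992974, each on the plus strand.
Muc2: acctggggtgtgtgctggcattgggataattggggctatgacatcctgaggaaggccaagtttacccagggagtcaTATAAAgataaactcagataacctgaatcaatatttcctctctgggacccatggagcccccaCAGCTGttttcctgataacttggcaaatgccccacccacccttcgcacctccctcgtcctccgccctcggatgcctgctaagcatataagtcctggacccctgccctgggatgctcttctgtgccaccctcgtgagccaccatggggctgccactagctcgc
Fcgbp: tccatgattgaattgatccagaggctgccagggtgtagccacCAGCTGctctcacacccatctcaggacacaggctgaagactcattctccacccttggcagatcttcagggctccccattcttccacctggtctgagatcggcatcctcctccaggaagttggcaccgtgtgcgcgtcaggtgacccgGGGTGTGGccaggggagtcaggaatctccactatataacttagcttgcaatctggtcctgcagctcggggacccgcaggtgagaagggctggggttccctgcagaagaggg
Agr2: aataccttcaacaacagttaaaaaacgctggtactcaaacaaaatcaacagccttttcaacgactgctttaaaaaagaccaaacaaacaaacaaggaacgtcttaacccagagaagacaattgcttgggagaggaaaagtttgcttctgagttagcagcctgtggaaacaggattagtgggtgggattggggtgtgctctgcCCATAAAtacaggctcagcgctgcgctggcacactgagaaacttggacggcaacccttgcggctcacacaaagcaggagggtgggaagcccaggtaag

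In these windows, 10 motifs were searched on both strands. The E-box CAGCTG, a form bound by basic helix-loop-helix factors such as ATOH1, occurred 112 bases before the Muc2 start and 208 bases before the Fcgbp start, and was not found in the Agr2 window. It was present in 16.3% of 32851 promoters of the same length. Muc2 also held TATAAA, 174 bases before its start (13.6% of promoters), and Fcgbp held the KLF motif GGGTGTGG, 61 bases before its start (3.56%). Agr2 held the CDX motif TTTATNG on the minus strand, 48 bases before its start (10.9%). The window of Clca3a1, the gene of the listed Clca1, held CAGCTG 41 bases after its start. These 4 windows had no match to the E-box CAGATG (17.2% of promoters), the FOXA motifs TGTTTAC (3.65%) and TGTTTGC (5.07%), the KLF motif GGGCGTGG (5.33%), or the unfolded protein response motifs CCACG (32.8%) and TGACGTGG (0.676%), of which the last holds the letters of CCACG on its other strand.

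H3K27me3 was described from the authors' peak lists, called in each library alone, within 2 kb either side of the start. Each list had 1 library behind it, so differences between media have no replicate check, and the folds over input are the authors'. The narrow lists held 33499 regions in WENRC and 55544 in ENRI, and the broad lists 5009 and 6094. Presence, length and distance of regions are therefore compared between lists of unlike size, which was not adjusted for. In the narrow lists, 5 of the 10 members were marked in WENRC and 4 in ENRI, beside 17.8% and 19.6% of all symbols. In the broad lists, 3 were marked in WENRC and 2 in ENRI, beside 10.5% and 8.76%. Marked members included genes that rose and genes with lower ENRI levels.

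Muc2 had narrow regions across its start in both media. In WENRC the region ran from 1942 bp before to 526 bp after the start, with a fold over input of 6.1. In ENRI, where Muc2 was transcribed at a higher level, a region was still listed, from 1830 bp before to 4797 bp after the start, with a fold of 5.26. Zg16 had a narrow region upstream of its start in both media, which ended 664 bp before the start in WENRC (3489 bp long, fold 6.45) and 1479 bp before it in ENRI (2217 bp long, fold 4.12). The nearest broad regions were 208 kb from Muc2 in each medium, and 98.4 kb from Zg16 in WENRC and 99.1 kb in ENRI.

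Sytl2 and Creb3l1, the tethering protein and the transcription factor, were marked in all 4 lists. The 4 regions at the Sytl2 start were 5063 to 5770 bp long, lay across the start and had folds of 4.65 to 5.08, alike in the media although its transcription was higher in ENRI. The Creb3l1 regions lay across the start in WENRC (1588 bp in the broad list, fold 4.9) and from 136 bp after it in ENRI (1891 bp, fold 4.6). Spink4 was marked in WENRC alone, in the narrow list from 808 to 1534 bp after the start (fold 5.67) and in the broad list from 495 to 1495 bp (fold 4.07). The nearest ENRI region to Spink4 was 121 kb away.

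Tff3, Fcgbp, Agr2, Retnlb, the listed Clca1 and goblet cell Clca1 had no region within 2 kb of the start in any list. Retnlb was the member with the fewest reads. Its nearest narrow region began 2452 bp after the start in WENRC and 4268 bp after it in ENRI. A broad region of 8209 bp in ENRI began 6056 bp after it, while the nearest broad region in WENRC was 2773 kb away. The nearest narrow regions to the start of Tff3, which had more reads in each library, were 5.76 kb away in WENRC and 3.87 kb in ENRI. Fcgbp had 3 narrow regions of 500 bp within the gene in the longer ENRI list, and none in WENRC. The nearest narrow regions to Agr2 were 302 kb away in WENRC and 67.1 kb in ENRI. In the related lists, the broad regions marked 3 of the 12 goblet cell regulators in WENRC and 1 in ENRI, and the genes marked in either were Atoh1, Klf4 and Gfi1. None (0) of the 20 ER genes was marked in any of the 4 lists, and of the 7 Clca genes 1 was marked, in the ENRI narrow list. The WENRC broad list marked 5 of 27 other goblet and mucus genes and 2 of 25 mucin sugar enzymes. It marked 1 of 9 mucins and 0 of 16 granule genes. In the ENRI broad list these counts were 1, 1, 0 and 0. Over all symbols, the broad lists marked 10.5% in WENRC and 8.76% in ENRI, and the narrow lists 17.8% and 19.6%.

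**Figure D4:**
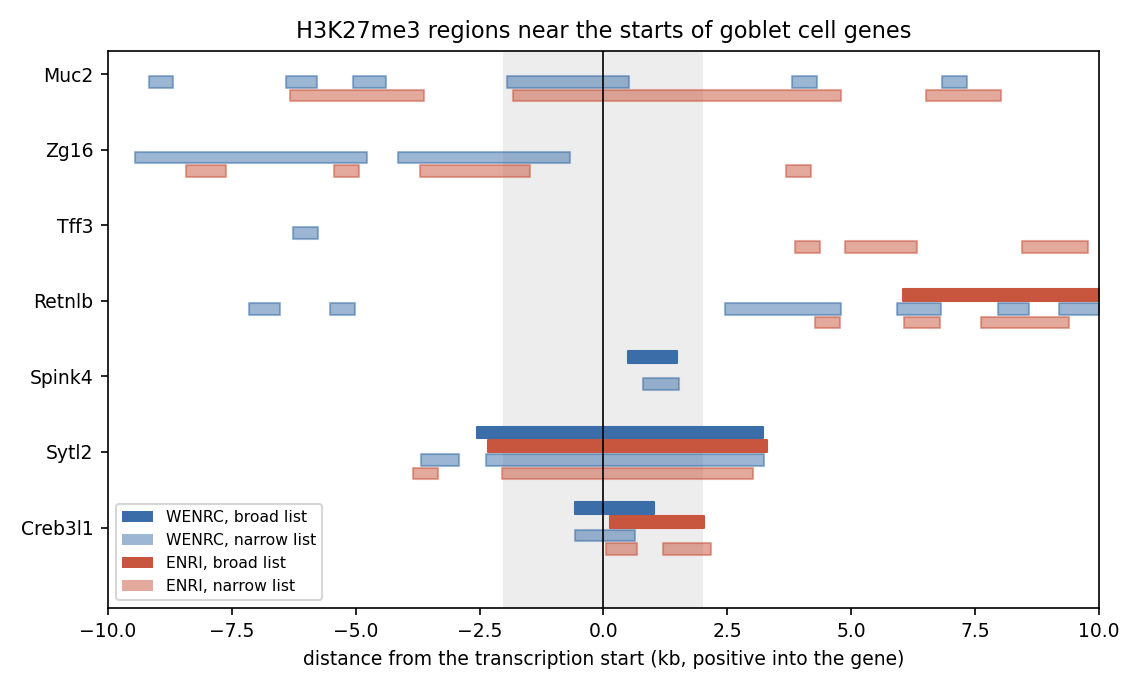
H3K27me3 regions of the authors' lists within 10 kb of the start of the 7 members that have any, by distance from the start in kb (positive values run into the gene). Blue is WENRC and red ENRI, solid bars are the broad and pale bars the narrow lists, and the grey band is the 2 kb either side that counted as promoter. Bars cross the start of Muc2 and Sytl2 in both media, and Spink4 has bars in WENRC only.

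Counts in the related gene lists are set beside the shares over all genes. Some genes of these lists, such as Scin and Unc13b, passed the filter through a single medium. For these a difference was built into passing. Over all symbols 15.1% lay above in both ENRI libraries and 33.4% below, with a median difference of -0.02, or -0.21 over the tested genes. At an unadjusted p under 0.05 by limma, 12% of tested genes were higher and 26.9% lower. The edgeR test called 5.12% higher and 2.47% lower without the replicate block, and 5.03% and 2.19% with it. DESeq2 called 14.7% higher and 8.88% lower without the block, and 9.69% and 4.65% with it.

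Of 12 regulators of goblet cells, 1 lay above in both ENRI libraries, 6 lay below and 5 overlapped, with a median difference of -0.26. In this list limma called 0 of the 10 tested, while 1 was higher and 5 were lower at an unadjusted p under 0.05; edgeR called 0 without the replicate block and 1 higher and 1 lower with it, and DESeq2 called 1 higher and 3 lower without it and 1 higher and 1 lower with it. The most transcribed were Elf3, Xbp1 and Hes1. Xbp1, a factor of the unfolded protein response, had 13.2 and 11.5 RPKM in WENRC and 12.7 and 17.8 RPKM in ENRI, which overlapped. Further genes of this and the following lists were chosen after their values were seen. Atoh1 (0.296 and 0.569 against 0.394 and 0.516 RPKM) and Spdef (0.526 and 0.432 against 0.315 and 0.454 RPKM), which drives goblet cell maturation, also overlapped. Foxa3, a forkhead factor of goblet cells, had 1.56 and 2.92 RPKM in WENRC and 0.626 and 0.531 RPKM in ENRI. Klf4, a factor of goblet cells and of the surface epithelium, had 2.23 and 3.75 RPKM in WENRC and 6.1 and 12.4 RPKM in ENRI.

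Among 9 other mucin genes in the table, 2 lay above and 3 below in ENRI, with a median of 0.02. The limma test called 0 of the 3 tested, with 2 higher and 1 lower at an unadjusted p under 0.05; edgeR called 1 higher with or without the replicate block, and DESeq2 called 2 higher and 1 lower without it and 2 higher and 0 lower with it. Muc13, a membrane-bound mucin of enterocytes as well as goblet cells, had 9.06 and 8.66 RPKM in WENRC and 14.4 and 33.1 RPKM in ENRI. Muc6, the gel-forming mucin of deep glands, had 1.06 and 0.88 against 2.05 and 2.47 RPKM. Muc4, another membrane mucin, had 1.28 and 1.31 against 0.477 and 0.584 RPKM. Muc5ac, the gel-forming mucin of the stomach surface, stayed at or below 0.0294 RPKM in each library.

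Of 25 enzymes that build and sulfate mucin sugars, 8 lay above and 5 below in ENRI, with a median of 0.00. None of the 16 tested was called by limma (0), with 3 higher and 0 lower at an unadjusted p under 0.05; edgeR called 2 higher without and 3 higher with the replicate block, DESeq2 called 6 higher without and 5 higher with it, and neither called any lower (0). St3gal4, a sialyltransferase, had 2.25 and 1.19 RPKM in WENRC and 7.65 and 12.3 RPKM in ENRI. Gcnt3, which starts the core branches of mucin sugars, had 6.23 and 3.84 against 11.6 and 7.27 RPKM. B4galnt2, which makes the Sd(a) sugar, had 5.85 and 4.73 against 4.23 and 4.65 RPKM. Chst4, a sulfotransferase, had 0.294 and 0.506 against 2.22 and 3.66 RPKM. C1galt1, which makes the core on which most of these sugars are built, had 1.64 and 1.63 against 1.81 and 1.47 RPKM, an overlap.

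Other genes known in goblet cells or mucus, 27 with Fcgbp among them, lay above in 11 cases and below in 5, with a median of 0.20. By limma 0 of 14 tested were called, with 5 higher and 2 lower at an unadjusted p under 0.05; edgeR called 2 higher without and 4 higher with the replicate block, DESeq2 called 5 higher without and 4 higher with it, and neither called any lower (0). Lypd8, which keeps bacteria from the mucosa, had 9.94 and 6.16 RPKM in WENRC and 27.7 and 17 RPKM in ENRI. Nlrp6 had 5.52 and 5.44 against 5.96 and 11.2 RPKM. Scin, an actin-severing protein, had 0.141 and 0.061 against 3.86 and 8.32 RPKM. Mep1b encodes a subunit of meprin, a brush border protease that releases mucus, and had 1.31 and 1.02 against 6.92 and 10.2 RPKM. Lypd8 and Mep1b are also made by enterocytes. The 5 genes below in ENRI were Slc39a7, Kdelr3, Tmed3, Rap1gap and Ccl9. Slc39a7 had 7.1 and 6.03 against 4.7 and 3.61 RPKM, and Kdelr3 had 4.4 and 4.18 against 3.07 and 2.59 RPKM.

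Of 16 genes of granule transport and exocytosis, 6 lay above and 6 below, with a median of -0.01. By limma 0 of 10 tested were called, with 2 higher and 2 lower at an unadjusted p under 0.05; edgeR called 1 higher without and 1 lower with the replicate block, and DESeq2 called 2 higher and 1 lower without it and 1 higher and 1 lower with it. Rab26, a GTPase of secretory granules, had 7.12 and 9.4 RPKM in WENRC and 2.32 and 1.03 RPKM in ENRI. Vamp8, the SNARE protein that goblet cells use for mucin release, had 2.47 and 2.13 against 4.14 and 4.99 RPKM, and its binding partner Stxbp2 had 2.43 and 2.23 against 2.63 and 2.85 RPKM.

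Of 20 ER folding and transport genes, 5 lay above and 10 below, with a median of -0.29, where all tested genes had -0.21. By limma 0 of 19 tested were called, with 4 higher and 3 lower at an unadjusted p under 0.05; edgeR called 0 with or without the replicate block, and DESeq2 called 4 higher and 1 lower without it and 3 higher and 0 lower with it. The chaperone Hspa5 had 26.7 and 20.9 RPKM in WENRC and 21.6 and 16.2 RPKM in ENRI. P4hb, a protein disulfide isomerase that is also a subunit of the lipid transfer protein of chylomicrons, had 12 and 8.69 against 22 and 41.7 RPKM. Calr, a calcium-binding chaperone, had 23 and 21.8 against 15.8 and 11.7 RPKM.

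Among markers of other cell types, limma called 0 in each list. At an unadjusted p under 0.05, 7 of 9 tested enterocyte markers were higher and 7 of 7 tested stem cell markers lower; edgeR with the replicate block called 7 and 5 of these, and without it 5 and 2, and DESeq2 called 9 and 7 with or without it. At the same unadjusted p, 2 of 7 tested Paneth markers, 1 of 1 tuft and 1 of 1 immune marker were lower. Of 4 tested enteroendocrine markers, 1 was higher. The stem cell markers Lgr5, Ascl2, Olfm4 and Znrf3, and the Paneth marker Mmp7, passed the filter through the WENRC libraries alone. For these a difference was built into passing. DESeq2 called 1 Paneth and 1 immune marker lower with or without the replicate block, and 1 enteroendocrine marker higher without it. The edgeR test called the immune marker lower without the block but not with it. The summed level of 10 enterocyte markers was 47.8 and 22.5 RPKM in WENRC and 568 and 812 RPKM in ENRI, with 9 of 10 above. That of 8 crypt base stem cell markers was 25.7 and 33.3 against 6.37 and 4.06 RPKM, with all 8 below. The 11 Paneth cell markers, of the other secretory granule cell of the crypt, summed to 32.7 and 54.6 against 24.3 and 46.9 RPKM (0 above, 4 below). The 11 enteroendocrine markers summed to 4.59 and 7.67 against 5.56 and 12.4 RPKM (5 above, 2 below), and 8 tuft cell markers to 1.49 and 1.78 against 1.11 and 0.729 RPKM (1 above, 4 below). Of 8 immune markers, 1 was above and 3 were below; their sum, 13.5 and 17.3 against 5.41 and 5.79 RPKM, was nearly all Cd68, while Ptprc did not exceed 0.0406 RPKM. Mesenchymal sums were 0.827 to 1.49 RPKM and endothelial sums 0.0251 to 0.0647 RPKM. The part of these cell types in the differences of Muc2, Zg16 and the other members was not tested.

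**Figure D5:**
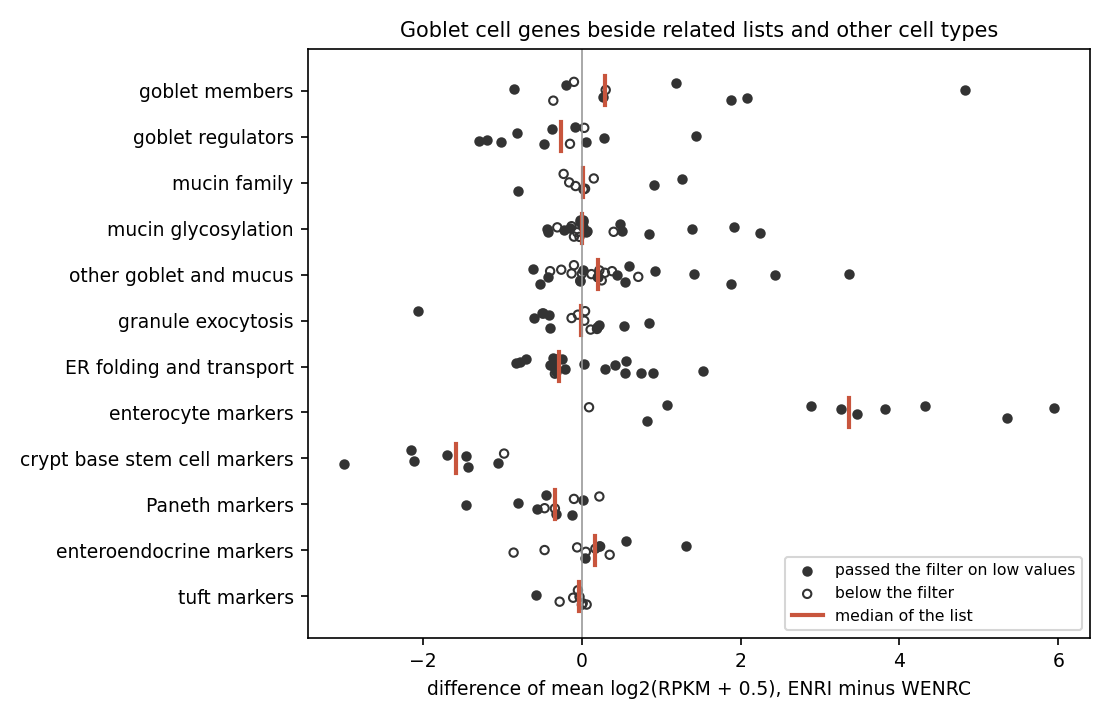
Difference of mean log2(RPKM + 0.5), ENRI minus WENRC, for each gene of the goblet cell members, the related lists and the markers of other cell types; filled points passed the filter on low values, open points did not, and the red bar is the list's median. The members spread from -0.85 to 4.82, around a median of 0.28, while enterocyte markers have a median of 3.37 and crypt base stem cell markers one of -1.58.

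The genes with profiles most like Muc2 and Zg16 over the 4 libraries were found by the distance between their centred log2 profiles, a description that shares the libraries. For Muc2 these were Pnliprp2 (distance 0.168), Mir22 (0.172), Mir6415 (0.173), Ccl20 (0.226) and Ccdc152 (0.238). Pnliprp2, a pancreatic lipase relative, had 0.156 and 0.176 RPKM in WENRC and 2.06 and 2.13 RPKM in ENRI, levels close to those of Muc2. For Zg16 they were less alike: Apoa4 (1.18), Krt20 (1.27), Guca2b (1.33), Apoc3 (1.41) and Reg1 (1.5). Apoa4, Krt20 and Apoc3 are genes of the absorptive enterocyte, and Apoa4 and Krt20 stand in the enterocyte marker list.

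Genes within 25 kb of a member lay in either direction. The gene nearest to Fcgbp on the same strand, 9530053A07Rik, 8602 bp away, had 0.442 and 0.254 RPKM in WENRC and 1.14 and 0.772 RPKM in ENRI, the direction of Fcgbp, with a difference of 0.78 ± 0.20 on the log2 scale (SE, n = 2 per medium, limma adjusted p = 0.0763). Kif22, 7736 bp from Zg16, had 1.46 and 1.47 against 0.982 and 0.776 RPKM, the opposite direction to Zg16. Beside Spink4, Bag1 had 1.91 and 2.45 against 1.7 and 1.89 RPKM. Of the further neighbours, Chmp5 (beside Spink4) and Tspan13 (Agr2) were higher in both ENRI libraries. Dgkz (Creb3l1), Ccdc89 (Sytl2) and Maz (Zg16) were lower in both. Psmc4 (Fcgbp), Sh3glb1 (the listed Clca1) and Abcg1 (Tff3) overlapped between media. No gene of the table lay within 25 kb of Muc2.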

How the data were processed

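GRO-seq was analysed in 2 libraries per medium and H3K27me3 ChIP-seq in 1; input DNA entered through the peak calls, and histone H3 was not analysed here. The authors counted reads over RefSeq transcripts of mm9 with HOMER, per the file headers (version 4.3 in the submitters' processing notes, which also name FastQC, Bowtie, Bowtie2 and edgeR). The deposited signal columns hold scaled reads: each summed to 20.0M, and 100% of the low values tested were whole multiples, within 0.1, of 1 step per library, so whole reads were recovered by division. The strand setting of the counting is not stated, so reads of overlapping antisense genes cannot be told apart. The 4 deposited RPKM columns were not used. The deposited log2 fold changes and their p-values and FDR are edgeR's with batch as a term, per the file headers.

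For H3K27me3 the authors ran HOMER's peak finder on each library against its input; per the file headers, WENRC had 31.4M tags and ENRI 29.8M. Among the deposited columns, the fold is ChIP over input, and the score counts tags in a region's best window.

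RPKM was computed from the scaled reads for the longest transcript of each of 24016 symbols (33022 transcripts) and tested with limma 3.58.1 (R 4.3.3, mean trend, no block); genes under the filter were not tested, and read ratios have exact binomial intervals. Alternatives were pseudocounts, filters, scalings, leaving out each library, DESeq2 1.42.0, edgeR 4.0.16 and peak settings. The limma and edgeR fits were run on simulated counts with a preset spread, which checks the code and not the power of the tests here. The titles give the same mouse numbers in both media; deviations from the group means of libraries of the same batch correlated at 0.0126 over 11602 genes, so the replicate block is an alternative. The members, lists and tests were chosen with earlier results of these data known. All members were named, plus up to 3 genes per list with the highest mean RPKM, neighbours within 25 kb and the 5 genes with the most similar profile. Further genes of the lists were named after their values were seen.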

Additional observations from a re-analysis of the deposited data

How the results depend on the processing

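The number of goblet cell members called by limma, 2 of 7, was 0 with a pseudocount of 0.1 RPKM, with no filter, with TMM scaling, and with the replicate block, and 1 with a pseudocount of 1 RPKM. It was 5 by edgeR with the replicate block, and 5 by DESeq2 with or without it. Leaving out 1 library gave 0 to 3, with 0 without either WENRC library; the lone library of a medium was assumed to vary like the other pair. An added pair of settings, chosen after seeing the data, was edgeR with its own filter, which called 0 members without and 2 with the replicate block. In the settings with 0 that kept all libraries, 5 to 8 members had an unadjusted p under 0.05. There were 5 with a pseudocount of 0.1 RPKM, beside 4365 of 11602 tested genes. There were 8 with no filter, where all 10 members were tested. There were 7 with edgeR's own filter, under which Sytl2 and Creb3l1 were tested too. The next paragraph holds the counts over all genes for the other settings.

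Over all genes, 17 were called, and 1 with a pseudocount of 0.1 RPKM, 0 with no filter (5201 of 24016 at an unadjusted p under 0.05), 0 with TMM scaling (3993 of 11602), 0 with the replicate block in limma (3841), 1489 with a filter on 10 reads, 929 with quantile normalization, 880 and 838 by edgeR without and with the block, and 2736 and 1664 by DESeq2 without and with it. The use of edgeR's own filter gave 0 without the block (3884 of 17193 at an unadjusted p under 0.05) and 193 with it. Leaving out 1 library gave 0 to 5795. The counts of edgeR thus depend on the filter.

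Muc2, Zg16, Fcgbp, Tff3, Agr2 and goblet cell Clca1 were higher in ENRI, and the listed Clca1 lower, in each of the 19 alternatives. All of these reuse the same libraries, so they are no independent check. A change of limma's filter, or its replicate block, cannot alter the difference itself. Leaving out a library cannot turn its direction where the media do not overlap. Spink4 turned from -0.20 to 0.02 with TMM scaling, 0.03 by edgeR and by DESeq2 without the block, and 0.02 by both with it; with edgeR's own filter it was -0.00 without the block and -0.01 with it. Members with a promoter region numbered 3 in the broad lists, 5 in the narrow lists and 0 with a fold over input of at least 8. The share of all symbols marked at that fold is not given here. Zg16 in WENRC (9 reads) and Retnlb are limited by depth.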
